A study of Mus musculus with 94 samples.

Results

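The interferon gamma-inducible GTPases described here are 10 genes: 5 guanylate-binding proteins (Gbp2, Gbp3, Gbp4, Gbp5 and Gbp7) and 5 immunity-related GTPases (Irgm1, Irgm2, Igtp, Iigp1 and Tgtp1). They were chosen by symbol from the 49080 genes of the expression table, and all 10 were found and passed the filter on low counts. The RNA came from 94 whole tumors that grew under the skin of female BALB/c mice, 8 weeks old, from injected 4T1 cells, a line of mouse mammary carcinoma. Control tumors were left untreated, 6 Gy tumors received a single dose of x-rays, INDO tumors came from mice that drank indomethacin at 30 mg/L, and 6 Gy + INDO tumors received both. Tumors were collected 1, 3, 7, 15 and 23 days after irradiation, from 4, 5, 5, 3 and 3 control mice, and from 5 mice in each treated group, apart from 4 given 6 Gy + INDO on day 3. All groups shared the same injected cell line, so every difference below is a difference between tumors of a single line in a single strain. Indomethacin inhibits both cyclooxygenases, the enzymes that start prostaglandin synthesis.

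Interferon gamma, the cytokine encoded by Ifng, is made mainly by T cells and natural killer cells. It binds the receptor chains IFNGR1 and IFNGR2, which act through the kinases JAK1 and JAK2. This signalling acts on promoters with gamma-activated sites (GAS) and induces IRF1, a transcription factor that binds interferon-stimulated response elements (ISRE), and the GTPases are among the genes that are induced most strongly in this way. The proteins bind membranes of vacuoles that hold parasites or bacteria: GBPs coat and help to break them, effector IRGs (Iigp1 and Tgtp1) assemble on them, and the regulators Irgm1, Irgm2 and Igtp, also called Irgm3, keep effector IRGs inactive on the membranes of the cell itself. In tumors their transcripts are commonly read as a sign of interferon gamma acting on the cells, since both tumor cells and leukocytes can express them.

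The promoters of the GTPases show how close these elements lie to the starts of transcription. RefSeq promoters on GRCm38.p6, each holding 250 bases before and 50 bases from the start on, were matched for 8 of the 10 genes, and Gbp4 and Iigp1 had no entry. Both strands were searched for an ISRE-like motif, in which GAAA is repeated after any 2 bases, and for a GAS-like motif, TTCNNNGAA. The windows below run 5′ to 3′ in the direction of the gene, capitals mark the motifs, and an ISRE-like motif in the other orientation reads as its reverse complement. The first 3 windows are shown because a GAS-like motif is followed by an ISRE-like motif after a gap of 2 bases in each of them, 3 more because the gene had an ISRE-like motif only, and the last 4 because the motifs of Gbp5 and Gbp7 lie in separate windows.
Igtp, chr11:58199507-58199536, plus strand: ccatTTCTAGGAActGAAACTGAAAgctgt
Irgm2, chr11:58214898-58214927, plus strand: ccatTTCCAGGAActGAAACTGAAAgctgt
Tgtp1, chr11:48992309-48992338, minus strand: ccatTTCCAGGAAtcGAAACTGAAAcctac
Irgm1, chr11:48871428-48871457, minus strand: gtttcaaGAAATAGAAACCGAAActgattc
Gbp3, chr3:142559992-142560021, plus strand: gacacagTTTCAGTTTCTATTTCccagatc
Gbp2, chr3:142620594-142620623, plus strand: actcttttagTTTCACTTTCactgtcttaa
Gbp7, chr3:142530229-142530258, plus strand: tTTCCAGGAAaagcagaagcTTCTCAGAAa
Gbp7, chr3:142530273-142530302, plus strand: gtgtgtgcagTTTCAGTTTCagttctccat
Gbp5, chr3:142496872-142496901, plus strand: tggccgttatTTCTCAGAAccaagcacaga
Gbp5, chr3:142496759-142496788, plus strand: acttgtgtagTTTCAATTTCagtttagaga

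The ISRE-like motif was found in all 8 matched genes, and in 3.44% of 32851 promoters. The GAS-like motif was found in 5 of the 8 (Gbp5, Gbp7, Tgtp1, Igtp and Irgm2) and in 8.3% of all promoters, and both together in 5 of the 8 and in 0.45% of all promoters. In Irgm1 and Gbp3 a pair of ISRE-like motifs overlapped by 4 bases, and a second listed start of Gbp3 held neither motif. Gbp5 held a further GAS-like motif, at -245 to -237 from the start, in a window that is not shown above. These matches are descriptions of letters in a window, not of bound sites.

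Every library held at least 21 M (mega) expected counts, and the median was 73.4 M in control tumors, 66.6 M in irradiated ones, 41 M under INDO and 37.5 M under both agents, so depth differed between treatments. The lowest count of any of the 10 genes in any tumor was 206, so counting error was small beside the spread between tumors. A set of 11 tumors held over 300 CPM (counts per M counts) of olfactory and vomeronasal receptor genes. Of these, 1 was control, 2 were INDO and 8 were given 6 Gy + INDO. CPM was taken over total counts for the receptor genes, and over the TMM-scaled library size for all other genes. Results that moved without these tumors are given both ways. The 6 epithelial markers of the tumor line were detected in every tumor and summed to between 1808 and 4947 CPM. The 12 T and NK cell markers summed to between 4.20 and 252 CPM, and the 8 macrophage markers to between 232 and 2096 CPM. RNA of whole tumors was measured, so fewer cells of a type and less RNA per cell cannot be told apart.

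Per length, Gbp2 was the highest of the 10 genes. Averaged over 94 tumors, it reached 136 CPM per kb of exon, followed by Igtp (82.2), Gbp4 (44.2), Gbp3 (41.4), Iigp1 (38.8), Gbp7 (36.9), Tgtp1 (35.1), Irgm2 (32.5) and Irgm1 (29.1), and Gbp5 was lowest at 4.82 CPM per kb. The order below Igtp changed with day: Gbp4 was the 9th of the 10 in all 4 groups of day 1, at 3.96 to 13.7 CPM per kb, and between the 3rd and 6th in every later group. By comparison, Irf1 stood at 58.0 and Ifng at 0.573 CPM per kb.

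On mm10, which the submitters name as their build, Gbp5 (142493978 to 142522344), Gbp7 (142530342 to 142550149), Gbp3 (142560026 to 142573209) and Gbp2 (142620602 to 142638008) lie side by side on the plus strand of chromosome 3 in the GENCODE annotation, and Gbp4 lies on the minus strand of chromosome 5 (105115767 to 105139586). Irgm1 (48861968 to 48871683) and Tgtp1 (48985327 to 48994172) are on the minus strand of chromosome 11, and Igtp (58199556 to 58207591) and Irgm2 (58199618 to 58222782) on its plus strand. Iigp1 lies on the plus strand of chromosome 18 (60376027 to 60392634). The annotated spans of Igtp and Irgm2 overlap on the same strand, Tgtp1 has the near-identical neighbour Tgtp2, and the GBPs are close paralogs. Expected counts share reads between such genes, so single values of these genes are less certain than the pattern over the family. 

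The GTPases were lowest in tumors of day 1. For all 10 genes, the 4 lowest of the 20 group means were the 4 groups of day 1. Gbp4, which belongs to the GBPs without a lipid anchor, had the largest difference between day 1 and day 23 in each of the 4 treatments. It was at 49.0, 16.4, 75.9 and 78.9 CPM in the control tumors of day 1 and at 238, 257 and 757 CPM in those of day 23, with no overlap, a log2 difference of 2.92 ± 0.74 (SE) and an adjusted p of 0.0020 (edgeR's quasi-likelihood test, Benjamini-Hochberg adjustment over all genes tested). In tumors given 6 Gy + INDO, Gbp4 was at 13.4, 102, 24.3, 19 and 18.1 CPM on day 1 and at 725, 212, 744, 330 and 451 CPM on day 23. Replicate 2 stood above the other tumors of day 1, and the groups again did not overlap. The log2 difference was 3.80 ± 0.66 (SE), with an adjusted p of 1.3e-05 (edgeR).

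**Figure D1:**
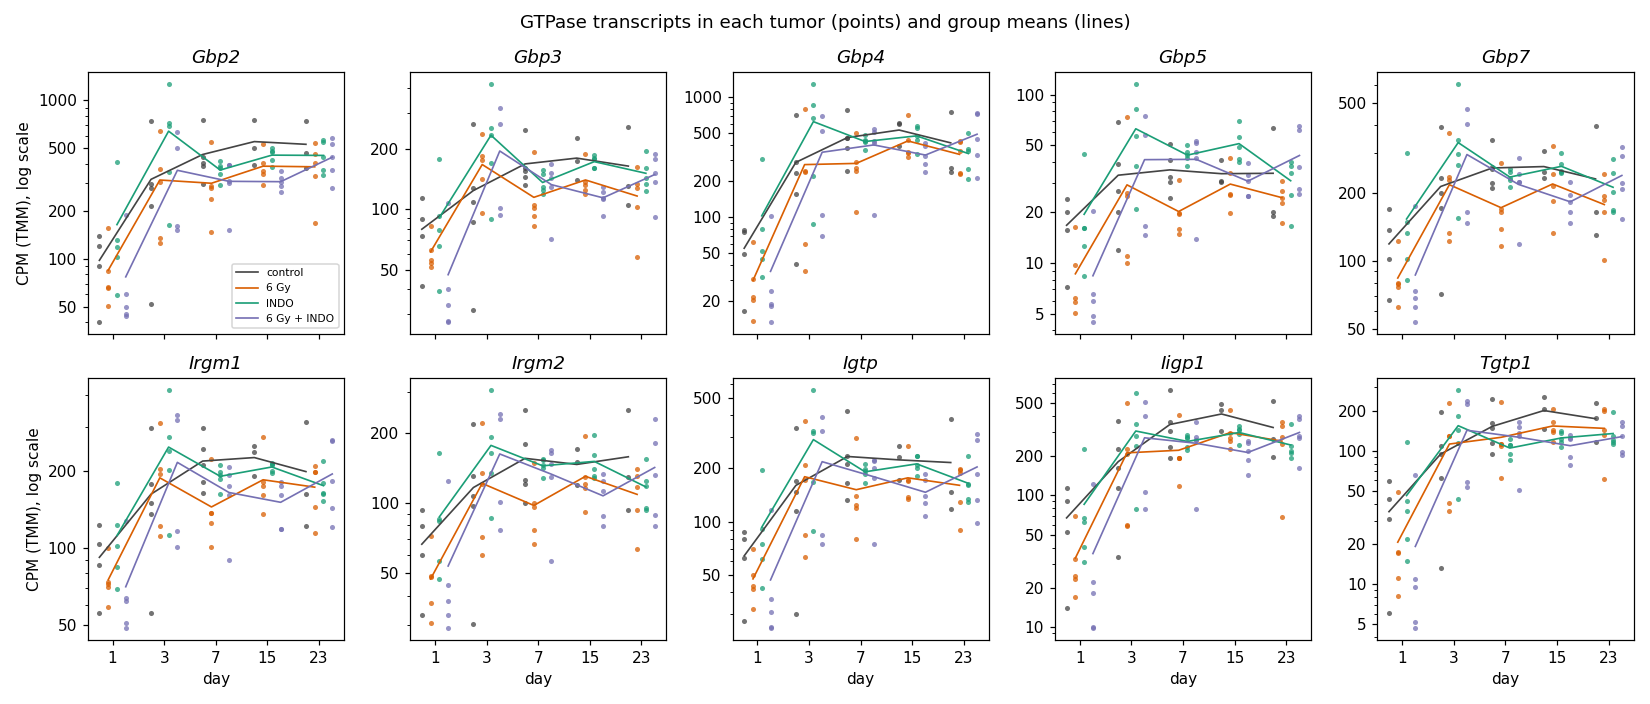
Transcript levels of the 10 GTPases in CPM (TMM-scaled, log scale) by day after irradiation, with a point for each of 94 tumors and a line through the group means of each treatment. The 4 day 1 means are the lowest of the 20 group means in every panel, and tumors of a group spread widely, up to 22.5-fold for Gbp4 on day 3 after 6 Gy.

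In untreated tumors, 7 of the 10 genes rose between day 1 and day 23 at an adjusted p under 0.05, when 11.7% of 29373 genes did so. Of the GBPs, Gbp2 rose by 2.43 ± 0.54 (SE) and Gbp4 by 2.92 on the log2 scale, and the 3 others had differences between 0.96 and 1.04 with adjusted p between 0.063 and 0.17. The effector IRGs rose by 2.27 ± 0.66 (Iigp1) and 2.31 ± 0.64 (Tgtp1). The regulators rose by 1.12 ± 0.36 (Irgm1), 1.25 ± 0.44 (Irgm2) and 1.75 ± 0.54 (Igtp). The count rested on single tumors: without replicate 3 of each group it was 1, and without replicate 2 it was 4. DESeq2 called 7.

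After 6 Gy, 9 of the 10 genes rose between day 1 and day 23, with 10.8% of all genes, and Gbp3 had a log2 difference of 0.92 and an adjusted p of 0.052. With 6 Gy + INDO all 10 rose, with 21.2% of all genes, by 1.41 (Irgm2) to 3.80 (Gbp4). With INDO alone 4 rose (Gbp2, Gbp4, Iigp1 and Tgtp1), with 12% of all genes, by 1.45 to 1.73. Without the high-receptor tumors the count with INDO was 0, as with housekeeping scaling. The differences were positive for all 10 genes in the 4 treatments, also with RLE scaling (relative log expression, the size factors of DESeq2) and with scaling to 12 housekeeping genes. On day 1 the first INDO tumor held 305 CPM of Gbp4 and the other 4 held 31.6 to 79.9 CPM, and without replicate 1 of each group the INDO count was 8. It was 1 without replicate 2 or 4, and 0 without replicate 3 or 5.

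A test over all 5 days called 6 of the 10 genes in control tumors (Gbp2, Gbp4, Irgm1, Igtp, Iigp1 and Tgtp1), with 30.2% of all genes. The same test called all 10 after 6 Gy (23.3% of all genes), 6 with INDO (25.9%) and all 10 with 6 Gy + INDO (43.6%). Without day 1, these 4 counts were each 0. The count in control was 1 without replicate 2 of each group and 2 without replicate 3, and with INDO it was 10 without replicate 1, 1 without replicate 2 and 0 without replicate 3 or 5. The highest group mean fell on day 3 for all 10 genes with INDO, on day 15 for 7 genes in control and for 7 after 6 Gy, and on day 3 for 6 genes and day 23 for 4 with 6 Gy + INDO. Among the 19 neighbouring pairs in the order of the 20 group means, none differed by more than the larger SD of the pair, apart from 1 pair for Gbp5. Neighbours in a sorted order are close by construction, so this does not measure how far groups are apart.

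Markers of T and NK cells moved with day as well. Of the 12 markers, 3 rose between day 1 and day 23 in control, 4 in irradiated, 8 in INDO and 11 in doubly treated tumors, and none fell. Their sum had a median of 37.1 CPM (range, 19.03 to 46.4) in control tumors on day 1 and 52.6 CPM (50.1 to 67.3) on day 23, and of 5.68 CPM (4.20 to 14.2) and 41.6 CPM (16.4 to 108.6) with 6 Gy + INDO. Of the 8 macrophage markers, 2 fell in control, 1 after 6 Gy and 1 with INDO, and 1 rose with 6 Gy + INDO. Of the 6 epithelial markers, 4, 2, 4 and 2 rose in the same order. These marker counts stand beside 11.7%, 10.8%, 12% and 21.2% of all genes that rose, listed in that order too. Of the 29373 genes, 6335, 5788, 6206 and 8889 were called in either direction, and 3427, 3177, 3519 and 6227 of them rose. The part of T and NK cells, macrophages and epithelial cells in the GTPase levels was not tested.

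Within most groups, tumors differed more in these 10 genes than in the median gene, by most on day 3, and the 10 genes often marked the same tumors. The SD of log2(CPM + 0.5) between tumors of a group had a median over the 10 genes that ranged from 0.98 to 1.19 on day 3, when the median over 17011 genes with a mean of at least 0 on this scale was 0.20 to 0.27. Gbp2, a GBP that carries a lipid anchor, was at 742, 281, 217, 52.0 and 297 CPM in the 5 control tumors of day 3, and at 353, 691, 717, 165 and 1272 CPM in the 5 INDO tumors of that day. The lowest and highest control tumors thus differed 14.3-fold. The median SD of the 10 genes was above that of all genes in 18 of the 20 groups, though by little in control on day 15 (0.33 against 0.26) and INDO on day 23 (0.34 against 0.27). The other groups were INDO on day 7 (0.15 against 0.19 over all genes) and INDO on day 15 (0.17 against 0.25).

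**Figure D2:**
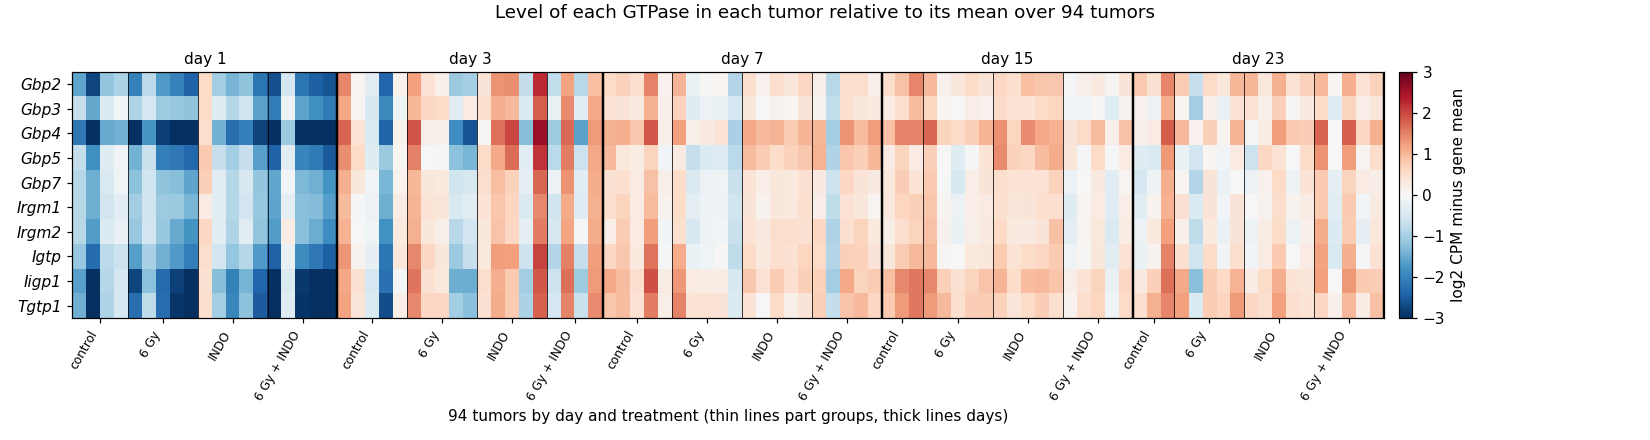
Level of each GTPase in each of 94 tumors as log2 CPM minus the gene's mean over all tumors (color, from -3 to 3, values beyond it drawn at the ends), with tumors in columns by day and treatment and genes in rows. Most columns have a single color from top to bottom, and in 11 of the 20 groups a single tumor was highest for all 10 genes.

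In 11 of the 20 groups the same tumor was highest for all 10 genes, and in 14 groups for at least 8 of them. In 14 groups a single tumor was lowest for at least 8 genes. Between tumors of the same treatment and day, the 45 pairs among the 10 genes had Pearson correlations from 0.86 (Gbp5 with Tgtp1) to 0.98 (Irgm1 with Igtp), with a median of 0.93 over 94 tumors. These values are a description, since the genes share libraries and some share reads. Gbp5, an activator of inflammasomes, had the lowest mean correlation with the other 9 (0.90).

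The same deviations were set against the ligand of the pathway and the transcription factor gene Irf1. Over 94 tumors, Irf1 correlated with the 10 genes at r between 0.89 and 0.96 (rho, 0.87 to 0.95). Ifng correlated at r between 0.77 and 0.89 (rho, 0.78 to 0.88), although it was read by a median of 28.5 counts a tumor and was at 0 in 3 tumors. Each of these 20 relations, of 30 computed, had p = 1e-05 for r and for rho, the smallest that 100000 two-sided permutations within treatment and day can give, and an adjusted p of 1e-05 over the 30. Without the pair of tumors farthest from the median of the gene on the x axis, r was 0.76 to 0.89 for Ifng and 0.89 to 0.96 for Irf1. Within single treatments r ranged from 0.72 to 0.95 for Ifng and from 0.79 to 0.98 for Irf1. Within single days the lowest r was 0.49 for Ifng and 0.52 for Irf1.

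**Figure D3:**
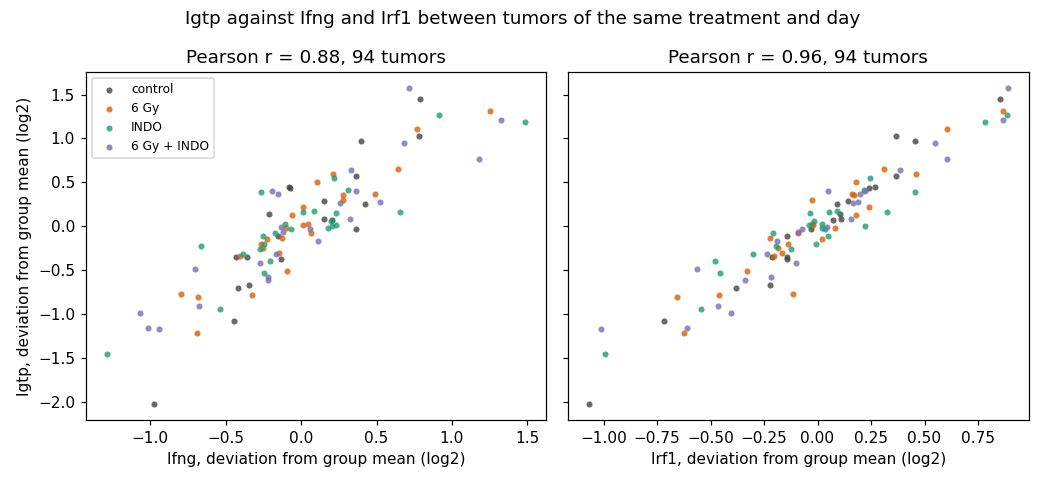
Deviation of Igtp from the mean of its treatment and day (log2(CPM + 0.5), y axis) against the same deviation of Ifng and Irf1 (x axes), with a point for each of 94 tumors colored by treatment. Points rise from left to right in both panels, with r = 0.88 for Ifng and 0.96 for Irf1.

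Among 17001 other genes, the 5 whose deviations were most like those of the 10 genes included Gm43302 (mean r = 0.95), Tgtp2 (0.95), Gm12250 (0.94) and Gbp2b (0.93), and the median over all 17001 was -0.01. Tgtp2, Gm12250 and Gbp2b are themselves GTPases of these families, and Tgtp2 shares reads with Tgtp1. Ifng had a mean r of 0.85, the granzyme gene Gzmb 0.65, the T cell genes Cd8a and Cd3e 0.45 and 0.33, and Ncr1 of NK cells 0.37. The macrophage genes Csf1r and Adgre1 had 0.21 and 0.04, the epithelial genes Krt8 and Epcam -0.17 and -0.06, and the endothelial gene Pecam1 -0.12. These markers were picked by name, and the other markers of their lists were not set against the deviations. The values therefore describe single genes and not cell types.

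The study asked how radiation and indomethacin change the immune state of these tumors, and the 3 treatments were therefore compared with control. As a mean over the 5 days, no GTPase was called in any of the 3 comparisons. After 6 Gy, all 10 genes had negative differences, between -0.53 (Gbp5) and -0.23 (Irgm1) on the log2 scale, with adjusted p between 0.063 and 0.50 (edgeR), when 19.8% of all genes were called. Without adjustment 3 had p under 0.05 (Gbp5, Gbp7 and Irgm2), and DESeq2 called 1. Their intervals (95%) ran from -1.02 to 0.22 over the 10 genes, so differences of this size were not resolved. The direction was the same with RLE and housekeeping scaling. Without day 3, or without replicate 1 of each group, 3 of the 10 were called lower.

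With INDO, the differences were small and of both signs. They lay between -0.10 (Tgtp1) and 0.37 (Gbp5), with 34.2% of all genes called, none of the 10 at an unadjusted p under 0.05 and none by DESeq2. With housekeeping scaling, which moved the median of all genes by 0.15, all 10 were positive. With 6 Gy + INDO, 52.8% of all genes were called and again none of the 10, by edgeR (none at an unadjusted p under 0.05) or by DESeq2. All 10 differences were negative, from -0.37 to -0.05, but with housekeeping scaling, which moved the median of all genes by 0.30, 7 of them were positive. Without day 3, 3 were called lower, and without replicate 2 of each group, 4. The intervals ran from -0.6 to 0.86 with INDO and from -0.89 to 0.37 with both agents.

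**Figure D4:**
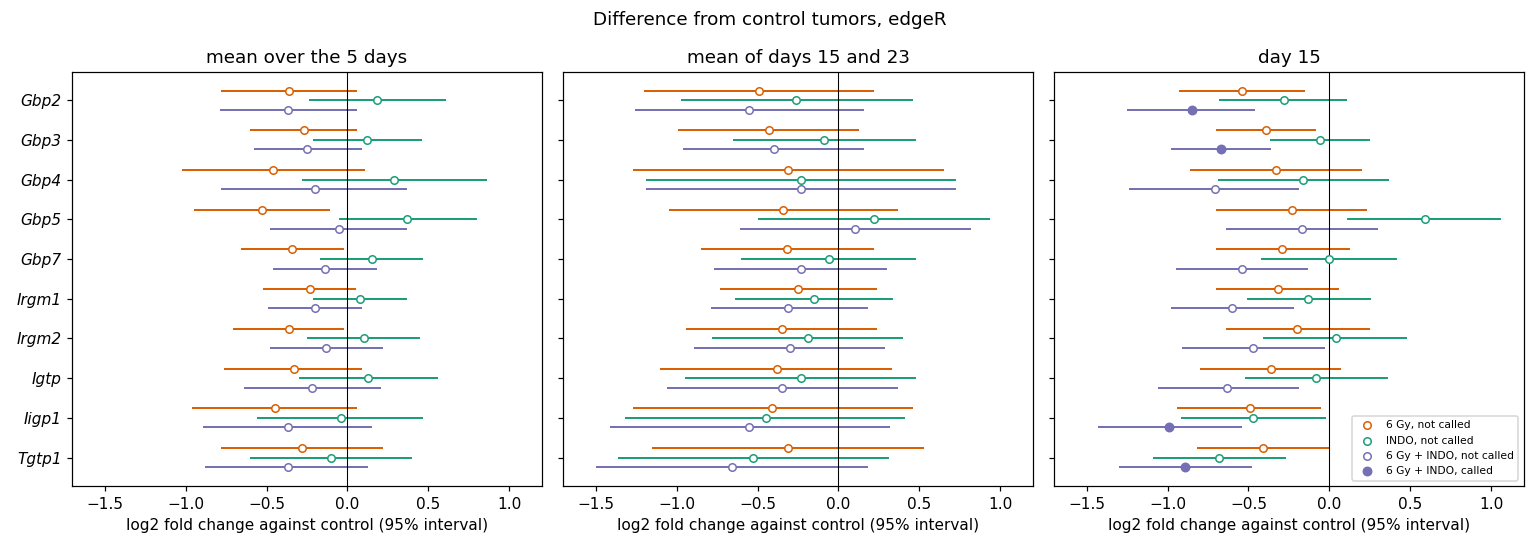
Log2 fold change of each GTPase against control tumors (x axis, with 95% intervals) for 6 Gy, INDO and both agents together, as a mean over the 5 days, as a mean of days 15 and 23, and on day 15. Filled points mark an adjusted p under 0.05, reached only by Gbp2, Gbp3, Iigp1 and Tgtp1 with 6 Gy + INDO on day 15.

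Set against each other as a mean over days, 6 Gy + INDO and 6 Gy differed in Gbp5 alone, which was higher with both agents by 0.48 ± 0.20 (SE) on the log2 scale (interval, 0.08 to 0.87), with an adjusted p of 0.044 (edgeR). This stood against 45.7% of all genes called and 25.9% called higher, and the median of all genes was higher by 0.19. DESeq2 also called 1 gene. The call was lost without the high-receptor tumors (0.32, adjusted p = 0.35) and with receptor reads as a covariate (0.43, adjusted p = 0.21), and over 17 alternatives the adjusted p ranged from 0.0031 to 0.35. With housekeeping scaling, 3 of the 10 were called higher. It was also lost without day 7, 15 or 23 and without replicate 2, 3, 4 or 5 of each group. The other 9 genes had differences between -0.09 and 0.26, within intervals from -0.56 upward. Between 6 Gy + INDO and INDO, none of the 10 was called by edgeR or DESeq2, with 10.8% of all genes called. All 10 differences were negative, from -0.55 (Gbp2) to -0.23 (Irgm2), also with RLE and housekeeping scaling. Of these, 4 had an unadjusted p under 0.05.

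Within single days, 14 of 15 comparisons with control called none of the 10 genes. On day 1, 15.6% of all genes were called for 6 Gy, 14.7% for INDO and 24.1% for both agents, and none of the 10 had an unadjusted p under 0.05 or was called by DESeq2. The differences were negative for all 10 after 6 Gy (-1.01 to -0.20) and with 6 Gy + INDO (-0.99 to -0.30) and positive for all 10 with INDO (0.23 to 0.94), also with RLE and housekeeping scaling. Without replicate 2 of 6 Gy + INDO, which was highest in its group for all 10 genes, 4 of them were called lower. Intervals on day 1 were wide, from -2.58 to 2.43 over the 3 comparisons. Of the 12 T and NK cell markers, 11 were lower that day after 6 Gy (median, -2.32), 7 with INDO (-1.91) and 12 with both agents (-2.71). Their part in the GTPase values of day 1 was not tested. On day 3, when 7.72%, 6.33% and 19.5% of all genes were called, none of the 10 had an unadjusted p under 0.05 in any comparison and DESeq2 called none. The differences were 0.61 to 1.14 with INDO and 0.23 to 0.70 with 6 Gy + INDO, positive with all 3 scalings, and of both signs after 6 Gy (-0.19 to 0.43). Intervals ran from -1.88 to 2.99.

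On day 7, 16% of all genes were called after 6 Gy, 24.3% in INDO tumors and 46% in those given both. Gbp5 was at 51.2, 32.3, 30.2, 41.0 and 24.5 CPM in control tumors and at 31.1, 15.9, 19.5, 19.9 and 14.9 CPM after 6 Gy. The 4 lowest values were all from irradiated tumors, but the groups overlapped. Its log2 difference of -0.83 ± 0.28 (SE) had an adjusted p of 0.051, and 5 of the 10 genes had an unadjusted p under 0.05, while DESeq2 called 2 genes lower. Replicate 1 of the 6 Gy group was highest in its group for all 10 genes, and without it 7 were called lower. Without replicate 2 of the 6 Gy + INDO group the count was 4, without control replicate 5 it was 2, and without high-receptor tumors it was 3. All 10 differences after 6 Gy were negative with the 3 scalings. In the same comparison 10 of 12 T and NK cell markers (median, -2.05), 7 of 8 macrophage markers (-0.93) and all 7 endothelial markers (-1.57) were lower, when 10.3% of all genes were, and the T and NK cell sum was 33.1 to 93.0 CPM in control and 11.8 to 31.3 CPM in irradiated tumors. Their part in the GTPase values was not tested. With INDO and with 6 Gy + INDO, 9 of 10 differences were negative, none had an unadjusted p under 0.05 and DESeq2 called none. With housekeeping scaling, which moved the median of all genes by 0.27 and 0.54, 8 and 10 of the 10 were positive instead.

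Day 15 held the calls against control, and the control group had 3 tumors. In 6 Gy + INDO tumors 4 of the 10 genes were lower, when 1.33% of all genes were called and 0.552% called lower, and DESeq2 called 5. Iigp1, an effector IRG, was at 306, 445 and 489 CPM in control tumors and at 185, 217, 260, 143 and 251 CPM with 6 Gy + INDO. All treated tumors were below all controls. The log2 difference was -0.99 ± 0.21 (SE), with an interval of -1.43 to -0.54 and an adjusted p of 0.032 (edgeR). Tgtp1, another effector, was at 145, 204 and 251 CPM in control tumors and at 89.5, 122, 131, 78.5 and 124 CPM with both agents. The groups did not overlap, and the log2 difference was -0.89 ± 0.19 (SE) with an adjusted p of 0.034.

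Gbp2 was at 394, 500 and 755 CPM in control tumors and at 264, 304, 325, 287 and 357 CPM with 6 Gy + INDO. All treated tumors were again lower, with a log2 difference of -0.85 ± 0.19 (SE) and an adjusted p of 0.034. Gbp3 was at 140, 173 and 226 CPM in control tumors and at 113, 113, 122, 92.6 and 129 CPM with both agents, a difference of -0.67 ± 0.15 (SE) with an adjusted p of 0.034. Gbp7 and Irgm1 did not overlap between the groups either, with differences of -0.54 (adjusted p = 0.14) and -0.60 (adjusted p = 0.086), so 6 of the 10 genes were lower in every treated tumor than in every control tumor, when 5.68% of all genes tested on the day were. The remaining 4 genes had differences from -0.71 (Gbp4) to -0.17 (Gbp5), and 9 of the 10 had an unadjusted p under 0.05.

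**Figure D5:**
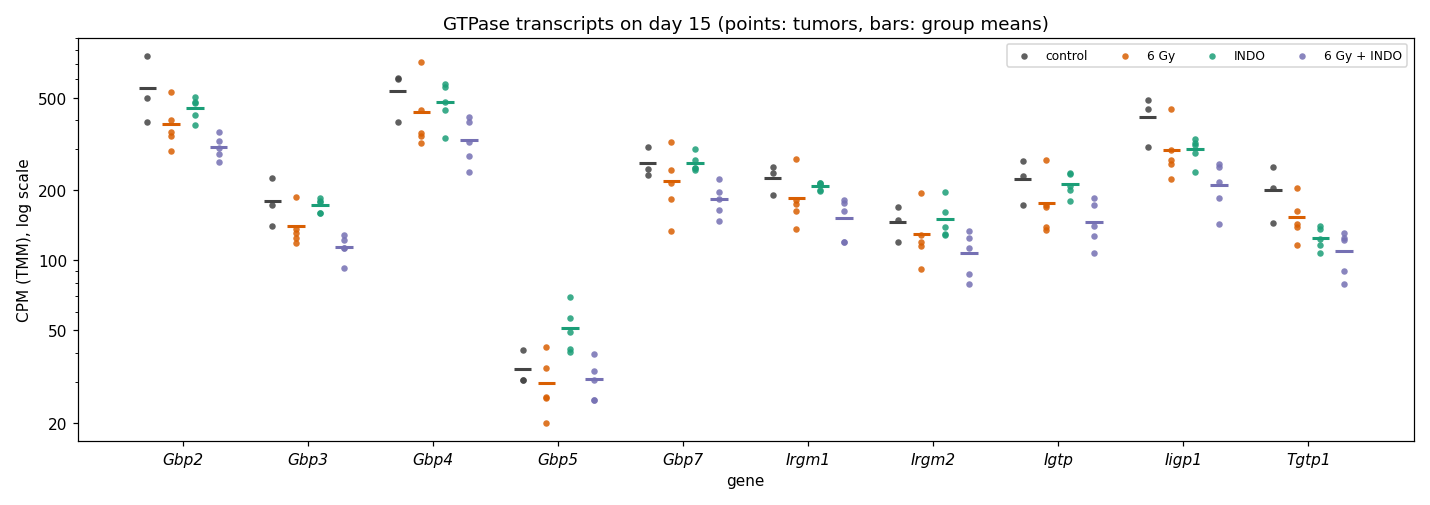
CPM (TMM, log scale) of the 10 GTPases in each tumor of day 15, with a bar at the mean of each group of 3 control, 5 irradiated, 5 INDO and 5 doubly treated tumors. Gbp2, Gbp3, Gbp7, Irgm1, Iigp1 and Tgtp1 lie lower in all 6 Gy + INDO tumors than in all control tumors.

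The day 15 calls depended on single tumors and on the fit. Control replicate 3 was highest of its group for 8 of the 10 genes, and without it none of the 10 genes was called, with differences of -0.52 for Gbp2, -0.43 for Gbp3, -0.81 for Iigp1 and -0.66 for Tgtp1. None was called without control replicate 2 or without replicate 1, 4 or 5 of the treated group, and the count was 1 without replicate 2 and 3 without replicate 3. With all 94 tumors in 1 fit the differences were nearly the same (-0.97 for Iigp1, -0.66 for Gbp3), but none of the 4 was called (adjusted p, 0.31 to 0.37). None was called with no filter on low counts, with a replicate block or with housekeeping scaling, and the last moved the median of all genes by 0.12 and left all 10 differences negative. Over 26 alternatives the adjusted p ranged from 0.0013 to 0.34 for Iigp1 and from 0.0015 to 0.37 for Tgtp1. The count was 4 without control replicate 1 or without both high-receptor tumors of that day.

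On the same day Irf1 differed by -0.44 ± 0.13 (SE) between 6 Gy + INDO and control tumors, with an adjusted p of 0.094. Ifng was between 0.619 and 1.15 CPM in control tumors and between 0.421 and 0.83 CPM with both agents (adjusted p = 0.39). The sum of the 12 T and NK cell markers was 37.0 to 62.0 CPM in control tumors and 12.6 to 46.7 CPM with both agents, that of the 8 macrophage markers 495 to 634 and 570 to 805 CPM, and that of the 6 epithelial markers 2863 to 4590 and 1896 to 3141 CPM. No gene of the 3 lists was called, and their part in the GTPase values was not tested. Mitochondrial genes took 4.04% to 6.89% of counts in the control tumors and 4.50% to 9.03% with both agents.

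In the other comparisons of day 15 no gene of the table was called (0% after 6 Gy and 0% with INDO), and DESeq2 called none of the 10. After 6 Gy all 10 differences were negative, between -0.54 and -0.20, with 3 at an unadjusted p under 0.05, also with RLE and housekeeping scaling. With INDO, Tgtp1 was at 136, 107, 123, 141 and 116 CPM, below the 3 control tumors (as were 2.21% of all genes), with a difference of -0.68 ± 0.19 (SE) and an adjusted p of 0.30, and Gbp5 was at 69.4, 41.5, 40.1, 49.0 and 56.3 CPM against 30.6, 40.9 and 30.5 CPM in control tumors (0.59 ± 0.23, adjusted p = 0.44). With housekeeping scaling 5 of the 8 negative differences with INDO turned positive. Gbp5, Iigp1 and Tgtp1 had an unadjusted p under 0.05. The 3 comparisons share the control tumors of the day.

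On day 23 none of the 10 genes was called, when 0% of all genes were called for 6 Gy, 0% for INDO and 0.00473% for both agents, and none of the 10 had an unadjusted p under 0.05 or was called by DESeq2. Differences ran from -0.53 to -0.20 after 6 Gy, from -0.42 to -0.10 with INDO and from -0.42 to 0.37 with 6 Gy + INDO, where 5 of the 7 negative differences turned positive with housekeeping scaling. The intervals ran from -1.29 to 1.21. Control replicate 3 was highest of its group for all 10 genes, at 757 CPM of Gbp4 against 238 and 257 CPM. As a mean of days 15 and 23, none of the 10 was called either by edgeR, at an unadjusted p under 0.05 or by DESeq2, with 0.266%, 0.415% and 15.8% of all genes called. The differences lay between -0.49 and -0.25 after 6 Gy, between -0.53 and 0.22 with INDO and between -0.66 (Tgtp1) and 0.10 (Gbp5) with 6 Gy + INDO. The intervals of single genes in these 3 comparisons ran from -1.5 to 0.94. With housekeeping scaling 2 of the 9 negative differences with INDO turned positive.

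Whether a treatment's difference from control itself changed between days was tested in the fit of 94 tumors. No GTPase was called after 6 Gy (smallest adjusted p = 0.51, 3.82% of all genes called), with INDO (0.48, 2.66%) or with 6 Gy + INDO (0.14, 33.6%), and none had an unadjusted p under 0.05. DESeq2 was not run for this test. With 6 Gy + INDO 1 gene was called without replicate 1 or 2 of each group and with housekeeping scaling. The low values on day 15 with 6 Gy + INDO are therefore not shown to differ from those of other days.

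As a mean over days, 10.6% of all genes were called lower and 9.19% higher after 6 Gy, 17.4% lower and 16.8% higher under INDO, and 23.2% lower and 29.6% higher under both agents, and the counts of each list over days stand against these shares. Of 17 genes of interferon gamma signalling, 7 were lower as a mean over days after 6 Gy: Ifng by -1.13 ± 0.37 (SE, adjusted p = 0.018), the receptor chains Ifngr1 (-0.40) and Ifngr2 (-0.30), the kinase gene Jak1 (-0.18), Irf8 (-0.49), the feedback inhibitor Socs1 (-0.62) and the class II transactivator Ciita (-0.80). Counted in either direction, 6 of these 17 genes were called with INDO and 7 with both agents. These shares were close to or below those of all genes (34.2% and 52.8%). With both agents all 7 were lower and none higher, when 23.2% of all genes were lower and 29.6% higher. With 6 Gy + INDO 7 were lower: Ifngr1 (-0.66), Ifngr2 (-0.41), Jak1 (-0.39), Irf9 (-0.35), Socs3 (-0.47), the phosphatase gene Ptpn2 (-0.23) and Ciita (-0.50). With INDO, Ifngr1 (-0.43), Ifngr2 (-0.28), Jak1 (-0.23) and Ptpn2 (-0.16) were lower, and Stat2 (0.31) and Nlrc5 (0.51), the class I transactivator, were higher. Irf1 was called in none of the 3, with differences of -0.28 after 6 Gy (adjusted p = 0.14), 0.09 under INDO and -0.23 under both agents. Between 6 Gy + INDO and 6 Gy, Ifngr1 (-0.26), Jak1 (-0.21), Jak2 (-0.26), Irf9 (-0.37), Ptpn2 (-0.20), Ptpn11 (-0.13) and Pias1 (-0.11) were lower and Stat2 (0.30) and Socs1 (0.49) higher with both agents. Against INDO, Ifngr1 (-0.23), Jak1 (-0.16), Irf8 (-0.39), Irf9 (-0.22) and Ciita (-0.70) were lower. Of all genes, 45.7% were called between 6 Gy + INDO and 6 Gy, and 10.8% between 6 Gy + INDO and INDO. The median of all genes differed by 0.19 and 0.05 in these comparisons. Small differences of these signalling genes were not followed under other scalings. Ptpn2 was the only gene of the 17 called on day 15 with 6 Gy + INDO (-0.41, adjusted p = 0.045).

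Of 13 genes that induce interferon gamma or regulate its producers, 6 were lower after 6 Gy, 8 with 6 Gy + INDO and 3 with INDO, where 2 were higher. They included the IL-12 subunit gene Il12b (-2.06 ± 0.28 with 6 Gy + INDO), Stat4 (-1.26 ± 0.22 with both agents), Tbx21, the regulator of type 1 lymphocytes (-1.62 ± 0.28 after 6 Gy) and the IL-18 receptor gene Il18r1 (-0.90 ± 0.21 after 6 Gy). Of the 12 T and NK cell markers, 10 were lower after 6 Gy (median, -1.51), 10 with both agents (-0.89) and 1 with INDO (-0.07), among them Ncr1 (-2.24), Nkg7 (-1.95), Cd4 (-1.69) and Klrk1 (-0.99) after 6 Gy. The mean with INDO joins unlike days: on day 1, 7 of the 12 were lower (median, -1.91), and on day 3 the median was 1.43 with none called. Of the 8 macrophage markers, 8, 5 and 3 were lower after 6 Gy, with both agents and with INDO, with Csf1r at -0.88 and Mrc1 at -1.18 after 6 Gy. The medians of the 10 GTPases over the same comparisons were -0.35, -0.21 and 0.13, and of all genes 0.03, 0.19 and 0.07.

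Between day 1 and day 23, of 20 further interferon-inducible GTPases 15 rose and 2 fell in control, and 17 rose and 1 fell with 6 Gy + INDO. After 6 Gy 16 rose and 2 fell, and with INDO 10 rose and 1 fell. Of 20 other genes induced by interferon gamma, 10 rose in control, 12 after 6 Gy, 9 with INDO and 16 with both agents. Of 17 genes that respond mainly to type I interferon, 9 fell in control, 8 after 6 Gy and 5 with INDO, and none rose in these treatments. With both agents 4 rose and 2 fell. Among all 29373 genes, 11.7% rose in control, 10.8% after 6 Gy, 12% with INDO and 21.2% with both agents. Those called in either direction numbered 6335, 5788, 6206 and 8889 in the same order.

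Other targets of the pathway were called in part as a mean over days. Of the 20 further GTPases, 1 was lower after 6 Gy (Gm5431, -0.43 ± 0.13), 2 were lower with 6 Gy + INDO (Ifi47, -0.70 ± 0.18, and Gm1966, -0.61 ± 0.24), and 1 was higher with INDO (Gbp8, 0.56 ± 0.21). Of the 20 other induced genes, 3 were lower after 6 Gy and 7 with both agents, among them the protease inhibitor gene Serpina3g (-1.05 ± 0.24 after 6 Gy), the proteasome activator gene Psme2 (-0.44 ± 0.10), H2-D1 (-0.37 ± 0.11), an MHC class I gene, and Wars (-0.25 ± 0.07) with both agents, and 2 were higher with INDO. Of the 17 type I interferon genes, 3 were higher after 6 Gy, 4 with INDO and 5 with both agents, and none was lower, with Oasl1 at 0.51 ± 0.10 after 6 Gy and Oasl2 (0.37), Oas2 (0.42) and Herc6 (0.34) with INDO. On day 3, all 17 type I interferon genes were higher after 6 Gy (median, 1.36), 16 with both agents (1.21) and 4 with INDO (0.67), against 3.62%, 10.1% and 2.38% of all genes, and none of the 10 GTPases was called. Of the 20 further GTPases, 2 were higher that day after 6 Gy, 3 with both agents and none with INDO. The 10 GTPases spread most between tumors on day 3, so their lack of a call does not show a contrast with the type I genes. As a mean over days, 17 genes that act with or downstream of the GTPases in autophagy and inflammasomes were also counted. Of these, 1 was lower after 6 Gy, 10 with both agents and 6 with INDO, where 1 was higher. Counted in either direction, these shares were near those of all genes for INDO (34.2%) and for both agents (52.8%). Counted lower only, 17.4% and 23.2% of all genes were called, below the shares of this list. The autophagy genes Atg5 (-0.59 ± 0.08), Gabarapl2 (-0.62 ± 0.10), Map1lc3b (-0.38 ± 0.07) and Atg7 (-0.19 ± 0.05) were among those lower with both agents.

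The lists for other tissue of a tumor also moved as a mean over days. All 7 endothelial markers were lower in each of the 3 comparisons, with Pecam1 at -0.93 and Tek at -1.63, Tie1 at -1.20 and Vwf at -1.15 with both agents. All 5 adipocyte markers were lower in each, with Fabp4 at -1.97 and Adipoq at -2.66 after 6 Gy and Cidec at -3.01 with both agents, and Plin1 at -2.47 after 6 Gy. Of the 6 epithelial markers 4 were lower with INDO and 4 with both agents, with Krt18 at -0.48, Krt8 at -0.43, Cldn4 at -0.52 and Epcam at -0.30 with both, and none after 6 Gy. None of 5 muscle and 5 skin markers was called in the 3 comparisons. Of 12 housekeeping genes, 8 were lower and 1 higher both with INDO and with both agents, and 3 lower and 2 higher after 6 Gy, with Actb at -0.40 and Hprt at -0.58 with both agents, Sdha at -0.26 and Gusb at -0.40. As a mean of days 15 and 23, no endothelial or adipocyte marker was called in any of the 3 comparisons. On day 15 the endothelial medians were 0.28 after 6 Gy, 0.38 with INDO and 0.02 with both agents.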

How the data were processed

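RNA-seq libraries of 94 tumors were analysed from the table of expected counts deposited by the authors, in which a read that fits several genes can be shared between them. Submitters' processing notes name cutadapt, STAR, Partek (version 11.0.24.0328) and mm10 without roles, and the counting tool and annotation were not given in the sources used here. Groups and replicate numbers came from the labels.

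Counts were rounded and tested in R 4.3.3 with edgeR 4.0.16 (filterByExpr, TMM, quasi-likelihood F test, Benjamini-Hochberg over all genes tested), with calls made where the adjusted p was under 0.05. The 4 groups of a day entered 1 fit of 21133 to 22276 genes. Means over days and tests between days came from 1 fit of 94 tumors and 29373 genes, in which day 23 against day 1 and the tests between days in treated tumors were added after the data were seen. Alternatives were RLE factors, scaling to 12 housekeeping genes, DESeq2 1.42.0, no filter, a replicate block, receptor reads as a covariate, the study's limits, and leaving out tumors or days. Levels are CPM over TMM library sizes. The fit was tested on simulated data. Labels name no mouse for a number, so p-values measure only the spread between these tumors.

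The genes and lists were chosen with earlier results of these data known. Named are the 10 GTPases, up to 4 genes of each list with the smallest p over days, signalling genes called over days or on day 15 with 6 Gy + INDO, and the 5 genes most like the GTPases. Gzmb, Cd8a, Cd3e and Adgre1 were named outside this rule. Values of 1 gene that this rule names are not reported here. Tumors of a group differed beyond sampling noise (chi-square per degree of freedom at least 27.3).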

Additional observations from a re-analysis of the deposited data

Results flagged for a closer look

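A tumor was taken as standing apart where its gap to the nearest tumor of its group, relative to the range of the group, passed the critical value of Dixon's test (95%), in groups of 4 or 5 tumors. Of 180 combinations of gene and group, 26 did so, in 9 tumors. Chance gives about 1 in 20 groups, and the 10 genes move together, so the 26 are not independent.

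Replicate 2 of 6 Gy + INDO on day 1 was far above its group for all 10 genes. It held 188 CPM of Gbp2 (next highest, 59.8), 107 of Gbp3 (39.9), 102 of Gbp4 (24.3), 20.3 of Gbp5 (6.52), 176 of Gbp7 (73.3), 128 of Irgm1 (63.8), 124 of Irgm2 (44.2), 116 of Igtp (36.6), 121 of Iigp1 (22.0) and 65.7 of Tgtp1 (10.96). Replicate 1 of INDO on day 1 was high for 5 genes, with 411 CPM of Gbp2 (next, 132), 305 of Gbp4 (79.9), 44.2 of Gbp5 (16.1), 226 of Iigp1 (67.8) and 117 of Tgtp1 (41.7).

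Replicate 1 of 6 Gy on day 7 was high for Gbp3 (192 CPM; next, 105), Igtp (295; 139) and Iigp1 (404; 193), and replicate 1 of 6 Gy on day 15 for Gbp3 (187; 137) and Igtp (269; 173). Replicate 1 of 6 Gy on day 3 was high for Gbp4 (798 CPM; next, 244) and Gbp5 (73.8; 26.0). Single values stood apart for Gbp3 in control replicate 4 on day 7 (248 CPM; next, 160), for Tgtp1 in replicate 2 of 6 Gy on day 1 (49.4; 17.4) and for Tgtp1 in replicate 3 of INDO on day 23 (197; 129). The only low value was 13.9 CPM of Gbp5 in replicate 2 of 6 Gy + INDO on day 7 (next lowest, 42.4), a tumor with 342 CPM of receptor genes.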

How the results depend on the processing

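No direction of a called GTPase difference reversed under the alternatives in which it was followed. Directions of the list genes were not followed under the alternatives. The replicate numbers did not pair the tumors: deviations of same-numbered tumors correlated at a mean of 0.05 over 132 pairs (lowest, -0.61), and 64 of 264 correlated best with their own number (24.2%). With the replicate block, the count of GTPases called after 6 Gy on day 7 was 1, that with 6 Gy + INDO on day 15 was 0, and no other count changed its side of the 1.5-fold limit.

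With 6 Gy + INDO on day 15 the count was 4, and it was 0 with no filter on low counts, with housekeeping scaling, with the study's limits and with 94 tumors in 1 fit, and 0 to 5 without single tumors. For 6 Gy on day 7 it was 3 without high-receptor tumors, 2 with DESeq2 and 0 to 7 without single tumors. For 6 Gy + INDO it was 0 to 4 without single tumors on day 1, and 1 with housekeeping scaling on day 7.

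As a mean over days, the count after 6 Gy was 1 without high-receptor tumors, 1 with DESeq2, 3 without day 3 and 0 to 3 without single replicate numbers. With 6 Gy + INDO it was 3 without day 3 and 0 to 4 without single numbers. Between 6 Gy + INDO and 6 Gy it was 3 with housekeeping scaling, 0 with no filter, with the receptor covariate, without high-receptor tumors, without day 7, 15 or 23 and with the study's limits, and 0 to 1 without single numbers. GTPases whose change with 6 Gy + INDO differed between days numbered 1 with housekeeping scaling and 0 to 1 without single numbers.

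Between days, the count was 0 without day 1 in all 4 treatments. In control it was 1 to 8 without single numbers. With INDO it was 2 with housekeeping scaling, 3 without high-receptor tumors and 0 to 10 without single numbers. For day 23 against day 1 it was 1 to 9 in control without single numbers. With INDO it was 1 with no filter, 0 with housekeeping scaling, 0 without high-receptor tumors, 1 without day 7, 1 without day 15 and 0 to 8 without single numbers. DESeq2 was not run for tests over several days. Groups held 3 to 5 tumors, and the lowest count of any of the 10 genes was 206. The cause of these changes was not tested.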
